A study of Homo sapiens with 6 samples.

Results

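Expression of 33 genes for glucose transport and glucose breakdown was examined in RNA-seq libraries of SPT5-AID DLD-1 cells with ARMC5 knockdown. The genes were taken from a fixed list of glucose transporters, glycolytic enzymes, lactate genes, pentose phosphate enzymes and TXNIP, a brake on glucose uptake. The list was selected on pathway membership with results of the same comparison known, among them the log2 fold change of SLC2A3 between shARMC5 and shNT cells, so the members' differences and calls below, which come from a fit over all genes, are descriptions and support nothing about the list or its members. All 33 genes were among the 13737 genes with enough reads to be tested, of 35810 genes with an entry.

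The cells were DLD-1, a human colorectal adenocarcinoma line, in which the elongation factor SPT5 carries an auxin-inducible degron. All 6 libraries share that genotype, and the sample labels name no auxin. The groups were 3 libraries with an shRNA against ARMC5 (shARMC5) and 3 with a nontargeting shRNA (shNT). Per the study's methods, the shRNAs were delivered with GIPZ lentivirus made in 293T cells and infected cells were selected with puromycin. The labels do not say which ARMC5 shRNA was used, and they do not say whether libraries of a group came from separate cultures. The paper counts 3 biological replicates for the RNA-seq and does not describe their cultures. P values therefore measure only the spread between these libraries. ARMC5 is an adaptor that brings RNA polymerase II to the CUL3 ubiquitin ligase. The study used RNA-seq to measure the ARMC5 knockdown and to compare gene expression with nontargeting shRNA. The libraries hold poly(A) RNA of whole cultures, in which fewer cells of a type and less RNA per cell cannot be told apart.

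Glucose enters cells through facilitative transporters of the SLC2A (GLUT) family and is trapped by hexokinase. Glycolysis then converts it to pyruvate, which lactate dehydrogenase reduces to lactate for export by SLC16A (MCT) carriers, while the pentose phosphate pathway branches off at glucose 6-phosphate to make NADPH and ribose. Tumor cells of the colon commonly take up much glucose and release lactate with oxygen present, and TXNIP, which glucose induces through the MondoA and ChREBP factors, drives glucose transporters off the cell surface.

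Libraries held 26201112 to 40866478 assigned reads. ARMC5 (chr16:31458080-31467166, GRCh38) measured 10.8, 12.0 and 12.9 CPM (counts per 1000000 reads, with TMM normalization) in shARMC5 cells and 23.0, 25.9 and 26.7 CPM in shNT cells, a log2 fold change of -1.09 ± 0.08 (standard error) with no overlap. Of 12 markers of colorectal epithelium, 8 passed the filter on reads. EPCAM and the keratins KRT8, KRT18 and KRT19 were abundant, whereas CDX1 was at 0 reads in all libraries and LGALS4 and GPA33 had at most 16 reads. The summed TPM (transcripts per 1000000, a per-length level) of the epithelial markers ranged from 8561 to 8864 in shARMC5 and from 7574 to 8092 in shNT cells, mostly through KRT8 and KRT18. KRT19 (761 against 717), EPCAM (1028 against 1021) and CDH1 (160.3 against 160.2) also had higher mean TPM in shARMC5 than in shNT cells, whereas lower means were found for CDX2 (117 against 123), CDH17 (30.9 against 37.5), VIL1 (3.56 against 8.59), LGALS4 (0.366 against 0.860) and GPA33 (0.120 against 0.192). The part of these markers in the results below was not tested. Fibroblast markers summed to at most 1.31 TPM, endothelial markers to at most 0.368 TPM and blood cell markers to at most 3.21 TPM.

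The glycolytic enzymes GAPDH, PKM, ENO1, ALDOA and TPI1 ranked from 9 to 138 among all genes by TPM in shNT cells, whereas the hexokinases, phosphofructokinases, ENO2 and ALDOC ranked from 1710 to 11960. Levels spanned more than 3 powers of 10 between members. In shNT cells GAPDH, which oxidizes glyceraldehyde 3-phosphate, averaged 6547 ± 198 TPM (SD, n = 3) and ranked 9 among all genes. PKM (pyruvate kinase, the last step to pyruvate) averaged 2332 ± 96.7 TPM and ENO1 (enolase) 2149 ± 38.8 TPM, and the ranges of these 2 genes did not overlap. LDHA at 1529 ± 60.3 TPM, LDHB at 1353 ± 26.3 TPM and ALDOA at 1312 ± 37.9 TPM followed, and the libraries of ALDOA and LDHB overlapped. SLC2A1 averaged 314 ± 22.9 TPM, between TKT at 338 ± 24.0 TPM and PGD at 292 ± 15.1 TPM, and was not separated from either by more than their spread. The least abundant members were SLC2A3 at 3.00 ± 0.934 TPM and ALDOC at 1.16 ± 0.0755 TPM. Together the 33 members made up 1.93 to 2.05% of all TPM, with overlapping ranges in the shARMC5 and shNT libraries.

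**Figure D1:**
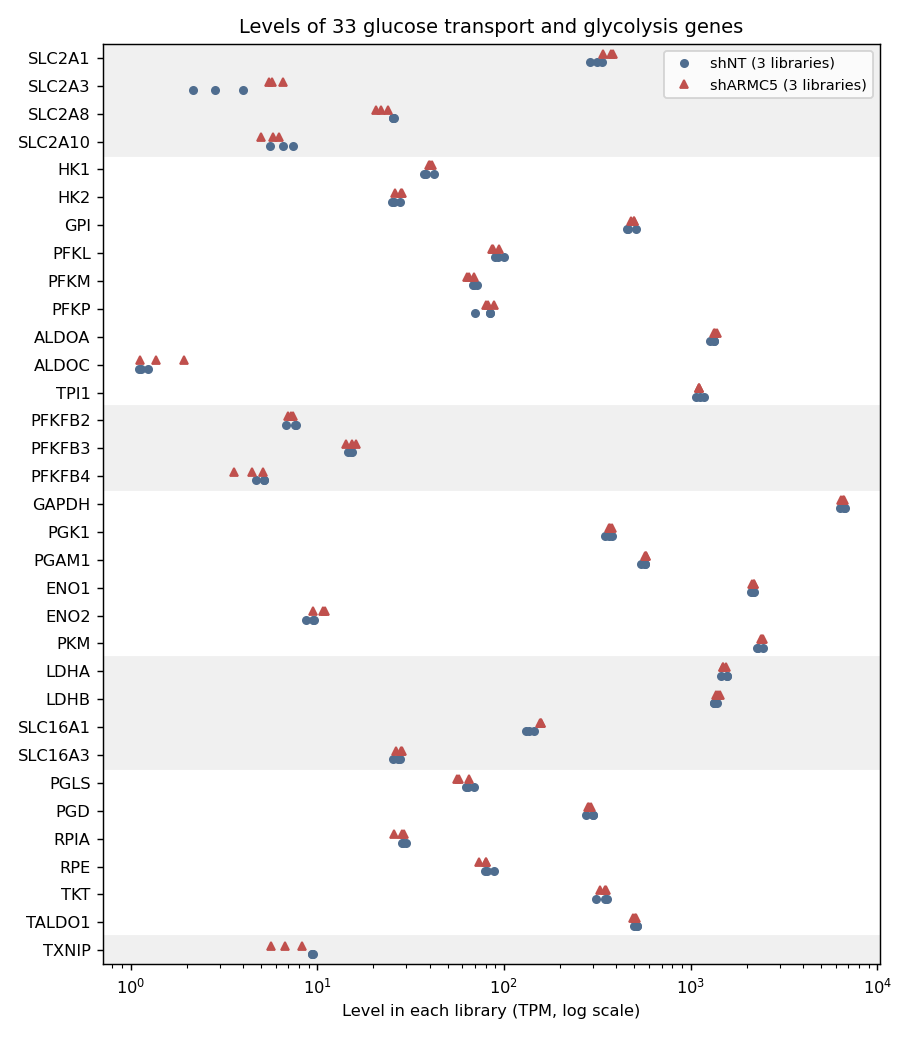
Level of each of the 33 members in every library, in TPM on a log axis, with shaded bands separating transporters, enzymes to triose phosphate, PFKFB enzymes, enzymes to pyruvate, lactate genes, pentose phosphate enzymes and TXNIP. Circles are the 3 shNT and triangles the 3 shARMC5 libraries. GAPDH lies highest at a mean of 6547 TPM in shNT cells and ALDOC lowest at 1.16 TPM, and only a few members such as SLC2A3, SLC2A1 and TXNIP show visible gaps between groups.

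Between shARMC5 and shNT cells, most of the pathway differed by only a few percent in mean CPM. SLC2A3, TXNIP, SLC2A1 and the lactate carrier SLC16A1 differed by over 10%, as did ALDOC (16.4%), SLC2A10 (-13.4%) and ENO2 (10.2%), which were not called. Called genes are those with an adjusted P under 0.1 in edgeR over all genes tested. By this criterion 5 members were higher in shARMC5 cells (SLC2A3, SLC2A1, SLC16A1, HK2 and ALDOA) and 1 was lower (TXNIP), which is 18.2% of the members. Over all genes tested, 7.75% were called, 4.44% higher and 3.3% lower. Because the list was drawn up with this comparison known, nothing is read from the members' share. Libraries of the groups did not overlap in CPM for 13 members, 11 of them higher and 2 lower, against 23.4% of all genes tested. Among these members, SLC2A10, HK2, GPI, TPI1, PGAM1, ENO1, PKM and LDHB overlapped between groups in TPM. The median log2 fold change of the members was 0.04, beside 0.00 for all genes, and 22 of the 33 members had positive values, beside 49.5% of all genes.

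**Figure D2:**
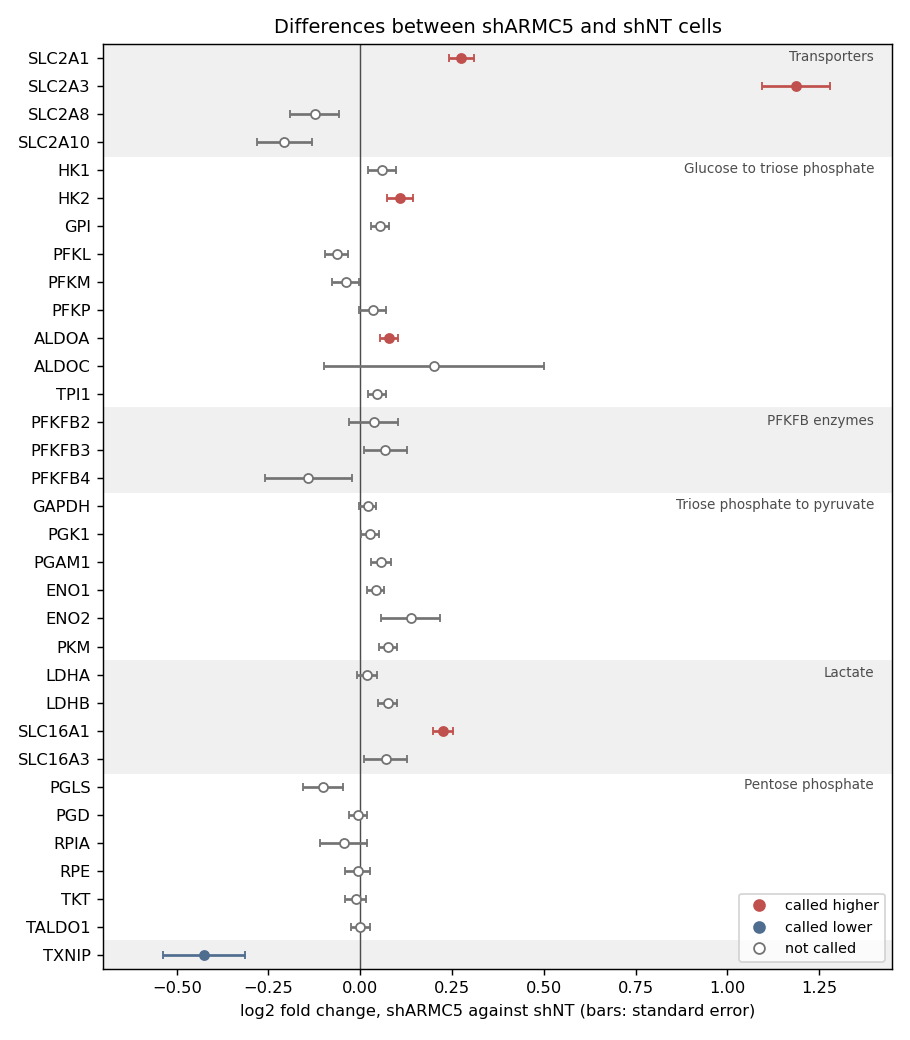
The log2 fold change of each member between shARMC5 and shNT cells with its standard error, ordered by role. Filled points mark members called at an adjusted P under 0.1, in red for higher and blue for lower. SLC2A3 stands at 1.19 and TXNIP at -0.43, while the 27 members not called lie between -0.21 and 0.20.

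Of the glucose transporters, SLC2A3 and SLC2A1 were called higher. SLC2A3 (GLUT3, a transporter of high glucose affinity best known from neurons, ENSG00000059804, chr12:7919230-8019007) measured 14.4, 15.3 and 14.4 CPM in shARMC5 cells and 6.42, 6.94 and 5.92 CPM in shNT cells. The groups were well apart, with every shARMC5 library above 14 and every shNT library below 7 CPM. The ratio of means was 2.28 and the log2 fold change 1.19 ± 0.09. These values rest on 166 to 602 reads per library. SLC2A3 was called higher in all 15 alternative analyses, with log2 fold changes of 1.01 to 1.25.

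Most SLC2A3 signal came from its main coding transcript, ENST00000075120, at 5.39, 5.57 and 5.19 TPM in shARMC5 and 2.21, 2.17 and 1.85 TPM in shNT cells. The remaining signal was assigned to transcripts annotated as retained intron, at 2.14 to 22.6% of the gene's TPM over the libraries, and to a nonsense-mediated decay transcript at 0 to 23.4%. The retained-intron share averaged 4.66% in shARMC5 and 19.6% in shNT cells without overlap, at the low read numbers given above. Of the 31-base words of the main transcript, 38.2% also occur in SLC2A14, a close paralog on the same chromosome. SLC2A14 itself was assigned 1 to 9 reads per library and was not tested. Adding its reads to SLC2A3 gave a ratio of 2.26 between groups, again without overlap.

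SLC2A1 (GLUT1, the main basal glucose transporter of most cultured cells, ENSG00000117394, chr1:42925353-42958893) measured 536, 537 and 510 CPM in shARMC5 cells and 424, 459 and 424 CPM in shNT cells. All shARMC5 libraries lay above all shNT libraries. The log2 fold change was 0.28 ± 0.03, a ratio of 1.21. It was called higher in 14 of 15 alternatives, the exception being edgeR with an offset for transcript length (log2 fold change 0.23). In absolute TPM this is the larger change of the pair, from 314 ± 22.9 to 365 ± 23.9 TPM for SLC2A1 and from 3.00 ± 0.934 to 5.94 ± 0.559 TPM for SLC2A3 (SD, n = 3).

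The leading SLC2A1 transcript shared no 31-base word with another gene, and the gene's signal was divided among transcripts of different annotated fates. The transcript with the highest TPM, ENST00000630287, is annotated as a target of nonsense-mediated decay and took 44.7 to 50.1% of the gene's TPM. Coding transcripts took 21.0 to 24.0% and retained-intron transcripts 25.9 to 32.4%, and these shares overlapped between groups. They are the authors' assignment of reads among overlapping transcripts and were not checked against the reads. The RefSeq start of SLC2A1 lies 20 bases upstream of that of ENST00000630287. Its promoter (RefSeq, GRCh38.p14, chr1:42958819-42959118, minus strand, 250 bases before to 50 after the start site) is shown because SLC2A1 is the member with the largest absolute rise among the transporters, with the core of the hypoxia response element (GCGTG) in capitals, 25 bases after the start site.
SLC2A1 promoter: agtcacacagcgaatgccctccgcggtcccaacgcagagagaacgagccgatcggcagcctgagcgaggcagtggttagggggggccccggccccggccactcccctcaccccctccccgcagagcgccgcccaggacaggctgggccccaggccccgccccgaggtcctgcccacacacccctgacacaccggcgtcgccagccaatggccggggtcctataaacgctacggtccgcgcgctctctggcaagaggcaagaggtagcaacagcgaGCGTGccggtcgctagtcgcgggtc

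The other transporters were not called. SLC2A8 (GLUT8, found on internal membranes) had a log2 fold change of -0.12 ± 0.07 and overlapping libraries, from 18.3 to 21.0 CPM in shARMC5 and 20.9 to 21.8 CPM in shNT cells. SLC2A10 (GLUT10) measured 12.0, 12.2 and 12.2 CPM in shARMC5 and 13.8, 14.1 and 14.1 CPM in shNT cells. Its groups did not overlap, but its log2 fold change of -0.21 ± 0.07 was not called, at 307 to 481 reads per library. The sum of the 4 transporters was 399 ± 23.4 TPM in shARMC5 and 349 ± 24.4 TPM in shNT cells. SLC2A1 held 91.5 ± 0.718% of that sum in shARMC5 and 89.9 ± 0.295% in shNT cells. SLC2A3 held 1.49 ± 0.122% and 0.850 ± 0.208%, SLC2A8 5.59 ± 0.739% and 7.34 ± 0.495%, and SLC2A10 1.42 ± 0.106% and 1.86 ± 0.203%. None of these 4 shares overlapped between groups in TPM, whereas the SLC2A1 share did when computed from CPM. In CPM, SLC2A3 held 2.55% in shARMC5 and 1.34% in shNT cells, SLC2A8 3.42% and 4.48%, and SLC2A10 2.11% and 2.93%.

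**Figure D3:**
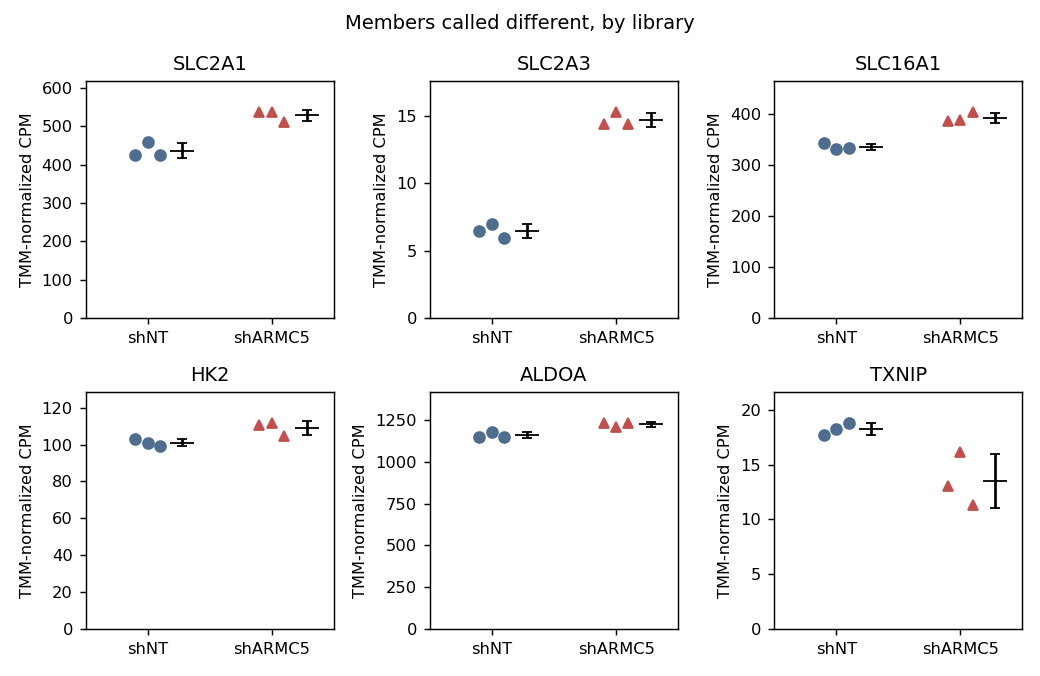
TMM-normalized CPM of the 6 called members in each library, with circles for shNT, triangles for shARMC5, and the mean with its SD beside the points. Vertical axes start at 0. SLC2A3 rises from a mean of 6.43 to 14.7 CPM, while HK2 and ALDOA differ by 7.77 and 5.55%, and the 3 TXNIP values in shARMC5 cells are spread more widely than those in shNT cells.

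The enzymes from glucose to triose phosphate showed small differences. Of 9 members, HK2 and ALDOA were called higher, 7 had positive log2 fold changes and 4 had groups apart, all higher. HK2, the hexokinase that is inducible and bound to mitochondria in many tumors (ENSG00000159399, chr2:74834127-74893359), measured 110, 112 and 105 CPM in shARMC5 and 103, 101 and 99.2 CPM in shNT cells. The lowest shARMC5 library was only just above the highest shNT library in CPM, and the groups overlapped in TPM. The log2 fold change was 0.11 ± 0.04, and HK2 was called in 6 of 15 alternatives. The call was lost on leaving out shARMC5 replicate 1 (log2 fold change 0.10) or replicate 2 (0.09), or shNT replicate 1 (0.12), replicate 2 (0.11) or replicate 3 (0.10).

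HK1, the constitutive hexokinase, measured 101, 101 and 106 CPM in shARMC5 and 103, 94.0 and 99.2 CPM in shNT cells, with overlap and a log2 fold change of 0.06 ± 0.04. It held 59.4 ± 1.73% of hexokinase TPM in shARMC5 and 60.0 ± 0.653% in shNT cells, so both groups kept a similar mix of HK1 and HK2 within their spread. In CPM, which is not corrected for the longer HK2 transcript, the HK1 share was 48.6% and 49.4%. GPI, which isomerizes glucose 6-phosphate, measured 587, 588 and 590 CPM against 573, 563 and 565 CPM, apart but not called (log2 fold change 0.05 ± 0.02).

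ALDOA, the main aldolase (ENSG00000149925, chr16:30064164-30070457), measured 1235, 1208 and 1232 CPM in shARMC5 and 1149, 1181 and 1152 CPM in shNT cells. The groups did not overlap, at a log2 fold change of 0.08 ± 0.03. It was called in 6 of 15 alternatives and lost its call on leaving out shARMC5 replicate 1 (0.07), replicate 2 (0.09) or replicate 3 (0.07), or shNT replicate 1 (0.07) or replicate 3 (0.07). Of the 31-base words of its leading transcript, 88.6% also occur in ENSG00000285043, a coding gene annotated over the same locus, so the reads of this pair are divided by the authors' quantification. ENSG00000285043 was assigned 196 to 258 reads per library, and the sum of both genes kept a ratio of 1.05 without overlap. ALDOC had 30 to 45 reads per library and a log2 fold change of 0.20 ± 0.30. ALDOA held 99.9% of aldolase TPM in both groups.

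The phosphofructokinases, which catalyze the committed step, were not called. PFKL, the liver type and the isozyme with the highest mean TPM, measured 173, 161 and 169 CPM in shARMC5 and 179, 176 and 172 CPM in shNT cells, with overlap and a log2 fold change of -0.06 ± 0.03. PFKM, the muscle type, had a log2 fold change of -0.04 ± 0.04 and PFKP, the platelet type, 0.03 ± 0.04. The cells carried all 3 types at comparable levels, with PFKL at 38.7 ± 1.08%, PFKM at 28.7 ± 1.31% and PFKP at 32.6 ± 1.56% of their TPM in shNT cells. In shARMC5 cells these shares were 37.4 ± 0.983%, 27.6 ± 1.60% and 35.0 ± 0.795%, and the PFKP share alone did not overlap between groups. In CPM it did overlap. TPI1 (triose phosphate isomerase) measured 968, 976 and 987 CPM against 938, 958 and 943 CPM, apart and not called (0.05 ± 0.02), and its TPM means ran the other way, 1107 against 1122.

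The PFKFB enzymes set the level of fructose 2,6-bisphosphate, an activator of phosphofructokinase, and none of the 3 was called. PFKFB3, the isozyme with the highest TPM of the family here, measured 40.6, 38.9 and 38.8 CPM in shARMC5 and 34.8, 40.5 and 37.4 CPM in shNT cells. The libraries overlapped, with shNT replicate 1 the lowest. PFKFB2 had a log2 fold change of 0.04 ± 0.07 and PFKFB4 of -0.14 ± 0.12.

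**Figure D4:**
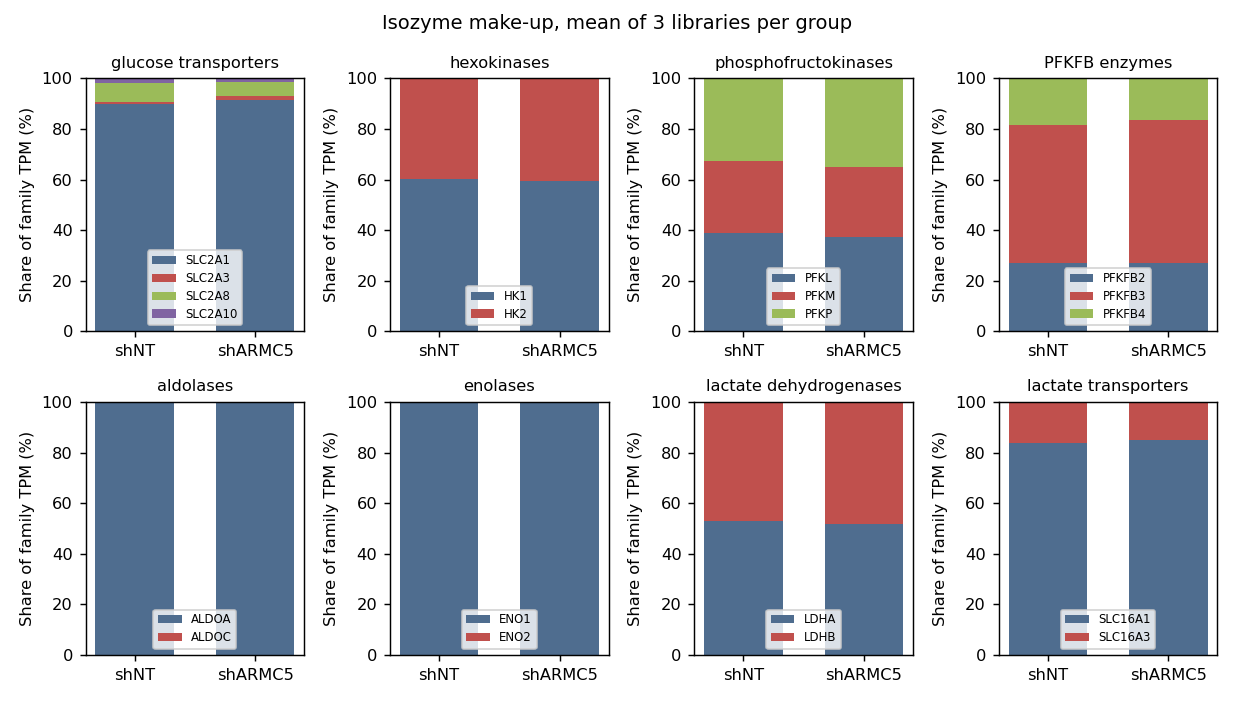
Share of each isozyme in the summed TPM of its family, as the mean of 3 libraries per group, on axes from 0 to 100%. Bars for shNT and shARMC5 cells are close to each other in all 8 families. SLC2A1 holds 89.9% of transporter TPM in shNT cells and LDHA 53.0% of lactate dehydrogenase TPM, and ALDOC and ENO2 are too small a part of their families to be seen.

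All 6 members from glyceraldehyde 3-phosphate to pyruvate had positive log2 fold changes, from 0.02 to 0.14, and stayed positive in all 15 alternatives, but none was called. GAPDH measured 5485, 5468 and 5461 CPM in shARMC5 and 5302, 5521 and 5359 CPM in shNT cells, a log2 fold change of 0.02 ± 0.02 with overlap, and its TPM means ran the other way, 6524 against 6547. PGK1, which makes ATP from 1,3-bisphosphoglycerate, had 0.03 ± 0.03. PGAM1 (phosphoglycerate mutase) had 0.06 ± 0.03 and groups apart. ENO1 measured 2419, 2445 and 2428 CPM against 2316, 2385 and 2383 CPM, apart at 0.04 ± 0.02. ENO2, the neuronal enolase at 0.480 ± 0.0409% of enolase TPM in shARMC5 cells, had 0.14 ± 0.08 with overlap.

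PKM (ENSG00000067225, chr15:72199029-72231819) measured 3788, 3692 and 3863 CPM in shARMC5 and 3616, 3514 and 3639 CPM in shNT cells. The groups did not overlap in CPM but did in TPM. The log2 fold change of 0.07 ± 0.03 was called in 3 of 15 alternatives. PKM is spliced with 1 of 2 mutually exclusive exons that give the M1 form of muscle and brain or the M2 form of proliferating cells. Transcripts with the M2 exon carried 98.0 to 98.2% of the TPM of transcripts holding either exon, and those with the M1 exon 1.81 to 2.03%. Both groups overlapped in these shares. The exons (GRCh38, minus strand) are shown because they separate the forms by sequence. They have 167 bases each, the M1 exon at chr15:72203022-72203188 and the M2 exon at chr15:72202454-72202620, and the 62 bases that differ when they are laid side by side are in capitals, the other 105 being identical.
PKM M1 exon: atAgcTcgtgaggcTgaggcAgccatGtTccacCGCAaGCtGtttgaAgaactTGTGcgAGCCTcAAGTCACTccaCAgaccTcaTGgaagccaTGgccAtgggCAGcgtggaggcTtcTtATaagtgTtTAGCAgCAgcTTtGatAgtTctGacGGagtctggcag
PKM M2 exon: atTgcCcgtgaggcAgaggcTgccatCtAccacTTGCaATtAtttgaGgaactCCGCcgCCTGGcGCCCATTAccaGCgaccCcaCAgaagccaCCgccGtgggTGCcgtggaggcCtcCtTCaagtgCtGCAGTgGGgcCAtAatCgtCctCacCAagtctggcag

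At the lactate step, SLC16A1 was called higher and all 4 members had positive log2 fold changes. SLC16A1 (MCT1, a carrier of lactate and pyruvate, ENSG00000155380, chr1:112911847-112957593) measured 385, 386 and 403 CPM in shARMC5 and 342, 331 and 332 CPM in shNT cells. Every shARMC5 library was above every shNT library, by a ratio of means of 1.17 and a log2 fold change of 0.23 ± 0.03. It was called higher in all 15 alternatives (0.20 to 0.24), and its main transcript, which shares no 31-base word with another gene, held 96.9 to 99.4% of its TPM. SLC16A3 (MCT4, the carrier associated with lactate export) had a log2 fold change of 0.07 ± 0.06 and overlapped. SLC16A1 held 85.1 ± 0.482% of their summed TPM in shARMC5 and 83.7 ± 1.12% in shNT cells, and the sum was 185 ± 2.25 against 164 ± 5.77 TPM.

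LDHA, the subunit of lactate dehydrogenase that favors lactate formation, measured 1205, 1235 and 1238 CPM in shARMC5 and 1183, 1236 and 1213 CPM in shNT cells. These overlapped, at a log2 fold change of 0.02 ± 0.03, and the TPM means ran the other way, 1517 against 1529. LDHB, the heart-type subunit, measured 1137, 1189 and 1187 CPM against 1098, 1108 and 1129 CPM, apart at 0.07 ± 0.03 and called in 3 of 15 alternatives. The LDHA share of lactate dehydrogenase TPM was 52.0 ± 0.245% in shARMC5 and 53.0 ± 0.731% in shNT cells, without overlap in TPM or CPM. Of the words of the leading LDHB transcript, 73.6% occur in ENSG00000285854, which was assigned at most 13 reads per library.

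None of the 6 pentose phosphate enzymes was called, and their log2 fold changes lay between -0.10 and 0.00. TALDO1 (transaldolase), the most abundant of them, measured 378, 387 and 394 CPM in shARMC5 and 379, 392 and 388 CPM in shNT cells, a log2 fold change of 0.00 ± 0.03. PGLS, the lactonase, had -0.10 ± 0.05. PGD, which releases NADPH, had -0.01 ± 0.02 and TKT (transketolase) -0.01 ± 0.03. RPIA had -0.04 ± 0.06 and RPE, the epimerase, -0.01 ± 0.03. All 6 overlapped between groups, and of these only PGLS kept its sign in all 15 alternatives.

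TXNIP (thioredoxin-interacting protein, ENSG00000265972, chr1:145992435-145996579) was the only member called lower. It measured 13.1, 16.2 and 11.3 CPM in shARMC5 cells and 17.7, 18.3 and 18.8 CPM in shNT cells. The shNT libraries were close to each other, whereas the shARMC5 libraries ranged from just under the shNT values down to 11.3 CPM. The log2 fold change was -0.43 ± 0.11, on 285 to 637 reads per library. Its main coding transcript, ENST00000582401, held 96.5 to 99.1% of the gene's TPM. TXNIP was called lower in 10 of 15 alternatives. The call was lost with an offset for transcript length in edgeR (-0.43), and on leaving out shARMC5 replicate 1 (-0.40) or shNT replicate 1 (-0.45), replicate 2 (-0.43) or replicate 3 (-0.40).

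TXNIP is the textbook target of the carbohydrate response element, a pair of E-box-like words that MondoA and ChREBP bind with MLX. Its promoter (RefSeq, GRCh38.p14, chr1:145996530-145996829, minus strand, starting at the same base as ENST00000582401) is shown for that element. In capitals are the match to CACGNG, 5 bases of any kind and CACGNG again, 88 bases before the start site, and matches to GCGTG on either strand at 163 and 54 bases before it. Another RefSeq start of TXNIP, 835 bases away, is not shown. The promoter at that start holds ACGTG and not the carbohydrate response element.
TXNIP promoter: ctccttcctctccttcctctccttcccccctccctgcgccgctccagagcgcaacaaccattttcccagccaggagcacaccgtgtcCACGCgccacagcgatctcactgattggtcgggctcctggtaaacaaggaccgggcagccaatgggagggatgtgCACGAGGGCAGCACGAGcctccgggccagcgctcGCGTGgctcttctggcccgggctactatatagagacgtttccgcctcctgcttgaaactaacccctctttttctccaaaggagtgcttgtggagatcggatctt

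Motifs were counted on both strands over 35116 RefSeq promoters of 300 bases, 56 of which belong to 30 of the members. SLC2A3, SLC16A1 and PFKFB2 had no promoter entry and are not part of these counts. The carbohydrate response element (CACGNG, 5 bases of any kind, CACGNG) was found in 20 promoters, 0.0570% of all, and TXNIP was the only member among them. The E-box CACGTG, bound by MYC and related factors, was in 7.26% of all promoters and in 10.7% of the members' promoters, those of HK2, PFKFB3, LDHA, GAPDH, ALDOA and ALDOC. The hypoxia cores ACGTG, which lies within CACGTG, and GCGTG were in 21.4 and 36.5% of all promoters and in 35.7 and 39.3% of the members' promoters. At least 1 of these cores was in 48.4% of all promoters and in 62.5% of the members' promoters. These are matches of letters in these windows and no measure of binding.

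**Figure D5:**
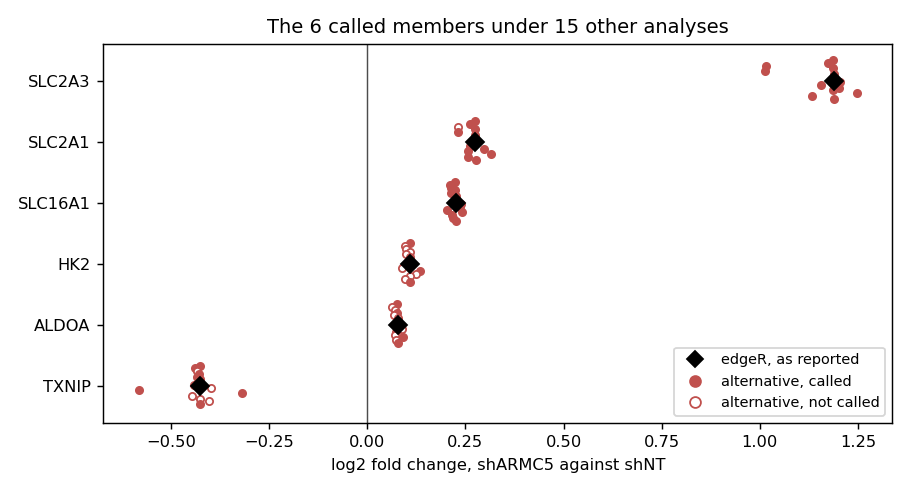
The log2 fold change of the 6 called members under the reported edgeR analysis (diamonds) and 15 alternatives (circles, filled where the member was called). SLC2A3 and SLC16A1 are filled throughout, SLC2A1 has 1 open circle, TXNIP 5 and HK2 and ALDOA 9 each, and all circles keep the sign of the diamond.

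Genes of related pathways were read from 7 lists of 118 genes, 85 of which were tested. Of these, 7 were called (8.24%), 3 higher and 4 lower, beside 7.75% of all genes. Among other glucose and fructose transporters, 0 of 6 tested genes were called, with a median log2 fold change of -0.18. Other glycolytic isozymes and side enzymes had 0 of 5 called and a median of 0.02. The gluconeogenesis and glycogen list had 1 of 18 higher and 2 lower, with a median of 0.00. UGP2, which makes UDP-glucose, rose (log2 fold change 0.12, edgeR adjusted P = 0.0240), whereas PCK2, the mitochondrial PEP carboxykinase, fell (-0.19, adjusted P = 0.0210), as did PHKB, a subunit of phosphorylase kinase (-0.16, adjusted P = 0.0942). UGP2 lost its call on leaving out shARMC5 replicate 2 (0.10) or shNT replicate 3 (0.11). PHKB lost it on leaving out shARMC5 replicate 1 (-0.15) or replicate 3 (-0.13), or shNT replicate 1 (-0.14) or replicate 2 (-0.15), with the offset for transcript length in edgeR (-0.26) and in DESeq2 without an offset (-0.16). PCK2 lost its call with the edgeR offset (-0.18).

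Of the other pentose phosphate and hexosamine genes 1 of 12 was called, at a list median of 0.02. That gene was H6PD, the dehydrogenase of the endoplasmic reticulum, which fell from 28.3, 26.9 and 29.2 CPM in shNT to 24.1, 23.0 and 21.8 CPM in shARMC5 cells (log2 fold change -0.29, edgeR adjusted P = 0.0112). Among partners of pyruvate and lactate handling 1 of 12 was called, at a median of 0.04. PDP1, the phosphatase that activates pyruvate dehydrogenase, rose from 68.5, 77.0 and 73.5 to 86.1, 85.4 and 85.0 CPM (0.23, adjusted P = 0.00345). Neither gene overlapped between groups, and each was called in 14 of 15 alternatives, the exception being the offset for transcript length in edgeR.

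The hypoxia response genes outside glycolysis had 1 of 16 called, at a median of 0.04. NDRG1, which is induced by hypoxia and other stresses, measured 23.8, 21.0 and 23.3 CPM in shARMC5 and 16.3, 18.6 and 20.9 CPM in shNT cells (log2 fold change 0.29, edgeR adjusted P = 0.0733). Its call was lost on leaving out shARMC5 replicate 1 (0.25) or replicate 3 (0.27), or shNT replicate 1 (0.20) or replicate 2 (0.29), and with the offset for transcript length in edgeR (0.35) and in DESeq2 (0.35). Among sensors and regulators of glucose genes 1 of 16 was called, at a median of -0.02. MLXIP, which encodes MondoA, fell from 129, 121 and 122 CPM in shNT to 112, 105 and 106 CPM in shARMC5 cells (-0.21 ± 0.04, adjusted P = 0.00259) without overlap, and was called in all 15 alternatives, with log2 fold changes down to -0.33 with the offset for transcript length in edgeR and in DESeq2. ARRDC4, the TXNIP paralog that is also a MondoA target, had a log2 fold change of -0.26 ± 0.11 and was not called (adjusted P = 0.213). HIF1A, the oxygen-regulated subunit of HIF-1, had -0.03 ± 0.03 and MYC 0.01 ± 0.06. Neither was called, and both took the other sign in some alternatives.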

How the data were processed

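Poly(A) RNA-seq of 3 shARMC5 and 3 shNT libraries of SPT5-AID DLD-1 cells was analysed. Per the labels and methods, the authors used cutadapt 4.2 for trimming and Salmon 1.9.0, correcting for GC bias, for quantification. They then summarized transcripts with tximeta and tested genes with DESeq2 at an adjusted P under 0.1. Among the alternatives below, DESeq2 with a length offset called neither HK2 (adjusted P = 0.384) nor ALDOA (adjusted P = 0.119). Each deposited file gives a transcript's estimated counts, TPM, length and effective length. The transcript set is not given in the sources used here.

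Of 177456 transcripts, 165533 matched GENCODE 44 (GRCh38) by identifier without version. The other 11923, holding 2.96 to 3.04% of reads, were left out. Estimated counts and TPM as deposited were summed per gene, and counts were rounded. The test, on genes reaching 10 counts in 3 or more libraries, was that of edgeR 4.0.16 (R 4.3.3; robust quasi-likelihood fit, TMM factors, condition as the only term, two-sided), with Benjamini-Hochberg adjustment over all 13737 genes and a threshold of 0.1. Folds and errors are from this fit, CPM compares 1 gene between libraries, and TPM compares genes. A share of 31-base words was taken over the leading transcript of each member against all other genes. It was at least 30% for 8 members, SLC2A3, ALDOA, TPI1, GAPDH, PGAM1, LDHA, LDHB and RPE. The fits were also run on simulated counts in which 200 genes were changed by a log2 fold change of 1. At the threshold of 0.1, edgeR recovered 80.5% of these genes, and 13.0% of its calls were false. For DESeq2 the values were 82% and 19.6%.

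Alternatives were DESeq2 1.42.0 with and without a length offset, its size factors in edgeR, library size only, a length offset in edgeR, at least 1 count, filterByExpr, a replicate block, leaving out each library, unmatched transcripts added to the preceding gene, a threshold of 0.05, and shares of CPM. The members and lists were chosen with earlier results of these data known. Every member is named. Values per library are given for called members and for the leading isozyme of each family, and of each list at most 4 called genes each way are named, with SLC2A14, ARRDC4, HIF1A, MLXIP and MYC whatever their values.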

Additional observations from a re-analysis of the deposited data

How the results depend on the processing

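SLC2A3 and SLC16A1 were called in all 15 alternatives and SLC2A1 in 14, and no called member changed sign. The count of all genes called moved from 1064 to 235 with a length offset in edgeR, 568 with a length offset in DESeq2, 676 at a threshold of 0.05 and, leaving out 1 library, 536 to 1085. Members called higher went from 5 to 3 with library size only, 2 with the edgeR offset, 3 with the DESeq2 offset, 3 at the threshold of 0.05, and 3 to 4 leaving out 1 library, and up to 6 in DESeq2 without an offset and 6 with unmatched transcripts added. Members called lower went from 1 to 0 with the edgeR offset, 0 at the threshold of 0.05, and 0 to 1 leaving out 1 library. The median of the members ranged from 0.02 to 0.05 without 1 library. HK2 and ALDOA lost their calls with library size only (0.09 and 0.06) and with the offset in edgeR (0.10 and 0.07) and in DESeq2 (0.10 and 0.07), HK2 also in DESeq2 without it (0.11) and ALDOA with genes of at least 1 count (0.08). The cause was not tested. Of the genes from related pathways, HIF1A turned positive with the length offset in edgeR (0.0198) and in DESeq2 (0.0194), and MYC turned negative with library size only (-0.0014), and without shARMC5 replicate 2, shNT replicate 1 or shNT replicate 3 (lowest -0.0384, highest over libraries left out 0.0899). ALDOC, PFKFB2, PFKL, PGD, RPE, RPIA, TALDO1, TKT and TPI1, none of them called, took both signs over the alternatives.

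Deviations of libraries with the same replicate number correlated at -0.02 to -0.01, beside -0.02 to 0.03 over all pairs. The labels tie the number to no batch or culture, and the reported fit used no pairing. With the number as a replicate block, 1766 genes and 7 members higher and 1 lower were called, PKM and LDHB being added. Depth limits ALDOC, SLC2A14 and, within SLC2A3, the split among transcripts.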
